A study of Homo sapiens with 6 samples.

Results

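The genes described here encode the chaperones of the cytosol and their helpers: the HSP70, HSP110 and HSP90 families with their cochaperones, the BAG proteins, small heat shock proteins, the heat shock factors HSF1 and HSF2, and the 8 subunits of the ring-shaped chaperonin TRiC. J-domain proteins were left out. They were chosen by gene symbol, and all 41 symbols had a row among the 26364 genes of the authors' deposited table. Of these, 36 had an adjusted p, 3 (BAG3, CRYAB and HSPA4L) had too few reads for one, and HSPA1A and CCT7 had a fold change but lacked any p-value. The proteins of 2 members lie outside the cytosol and nucleus: SERPINH1 resides in the endoplasmic reticulum, and HSPA13 is bound to microsomes.

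RNA-seq libraries came from REH, a widely used cell line derived from human acute lymphoblastic leukaemia of B-precursor type. Cells received 50 µM S3I-201, a compound used to inhibit STAT3, for 6 h, or DMSO, a common solvent, for the same time. Each group held 3 libraries from independent experiments, so the comparison asks how the line's transcripts differed when STAT3 was targeted with the compound. The authors' deposited table pools the 6 libraries into 1 mean normalized count per gene beside the DESeq2 fold change and its p-values, and does not say which group the fold change is relative to. The table's own title lists DMSO before S3I-201, which does not settle it. A positive value is taken here to mean higher in S3I-201, DMSO being the level DESeq2 would take as its base by default. Under the opposite reading every direction below would turn, and with it the side of each recovered read.

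The repeated steps of the lowest means, each worth 1 read in 1 library, yielded the libraries' size factors. They were 1.27, 1.19 and 0.573 on the S3I-201 side and 1.24, 1.02 and 0.948 on the DMSO side, or about 6600000 to 14500000 counts each. The steps could not be tied to replicate numbers. One library of the S3I-201 side, that with the size factor of 1.19, stood apart in HSPA1A and BAG3 reads, as described with these genes. Of 14 B-precursor markers 13 had reads, VPREB1 being listed at 0. Of 6 T-cell markers 4 were listed at 0, as were all 4 erythroid ones, 3 of 5 stromal ones and 1 of 4 epithelial ones. All 7 myeloid markers had reads, MPO with a mean of 978. No gene of these lists other than the B-precursor gene CD24, lower in S3I-201, passed among those tested.

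Chaperones of the HSP70 type bind exposed hydrophobic stretches of unfolded proteins in a cycle of ATP hydrolysis, which cochaperones time: BAG proteins and the HSP110 members release the nucleotide, and ST13 slows that release. Clients such as kinases and steroid receptors pass from HSP70 through the adaptor STIP1 to HSP90, while actin and tubulin fold inside TRiC. When unfolded proteins accumulate, HSF1 binds heat shock elements, inverted repeats of the unit GAA, in the promoters of inducible family members such as HSPA1A, HSPA1B, HSPA6, DNAJB1 and BAG3.

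The promoters of HSPA1B and HSPA13, which were higher, and of the HSPA1B relatives HSPA1A and HSPA6 are shown. They let the heat shock element be compared with the values. For SERPINH1, also higher, only a short site is shown further below. The promoters run 5′ to 3′ on the gene's own strand, come from RefSeq windows of 250 bases before to 50 after a transcript start (GRCh38.p14) and leave out exons of GENCODE 29. Capitals mark an inverted pair, GAANNTTC or TTCNNGAA, each of which reads the same on both strands, with overlapping matches counted apart. HSPA1B (chr6:31827488-31827734, plus strand) and HSPA1A (chr6:31815293-31815463, plus strand) carried the same 8 bases, and their whole windows were 92.6% identical. HSPA6 (chr1:161524290-161524539, plus strand) held 3 pairs, and HSPA13 (chr21:14383188-14383276, minus strand) held none in its window.
HSPA1B: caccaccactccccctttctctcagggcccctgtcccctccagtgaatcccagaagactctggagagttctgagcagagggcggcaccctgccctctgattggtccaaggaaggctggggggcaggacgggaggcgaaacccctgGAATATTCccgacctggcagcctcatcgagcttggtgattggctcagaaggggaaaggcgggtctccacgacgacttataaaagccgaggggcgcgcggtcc
HSPA1A: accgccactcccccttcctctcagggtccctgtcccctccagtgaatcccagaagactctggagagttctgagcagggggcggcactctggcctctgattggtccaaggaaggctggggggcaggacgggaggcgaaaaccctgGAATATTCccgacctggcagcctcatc
HSPA6: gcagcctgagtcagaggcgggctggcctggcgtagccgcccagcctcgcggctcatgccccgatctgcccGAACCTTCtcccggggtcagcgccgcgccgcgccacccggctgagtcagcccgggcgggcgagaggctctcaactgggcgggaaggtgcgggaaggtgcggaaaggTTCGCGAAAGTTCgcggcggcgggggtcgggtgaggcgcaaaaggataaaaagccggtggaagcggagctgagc
HSPA13: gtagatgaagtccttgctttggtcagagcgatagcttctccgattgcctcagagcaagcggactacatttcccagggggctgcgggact

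The members with 3 alternating units in a row, GAANNTTCNNGAA or its reverse complement TTCNNGAANNTTC, were HSPA6, SERPINH1, HSPA8, HSP90AA1, HSP90AB1 and CHORDC1. One such site of each gene but HSPA6, whose promoter stands above, is shown, since these genes differ widely in their values. Capitals here mark the run of units and the bases between them. Exons were not left out of these short sites, unlike the promoters above. The sites of SERPINH1, HSPA8, HSP90AA1 and CHORDC1 lie outside any part of their windows kept after exons were removed. Only the HSP90AB1 site lies within such a part. The CHORDC1 stretch holds overlapping runs, so its capitals go on past the first. A further run is cut off by the end of the stretch, so its last bases there stand in lower case. The sites lie at chr11:75562169-75562198 (SERPINH1, plus strand), chr11:123062170-123062199 (HSPA8, minus strand), chr14:102087111-102087140 (HSP90AA1, minus strand), chr6:44247823-44247852 (HSP90AB1, plus strand) and chr11:90223088-90223117 (CHORDC1, minus strand).
SERPINH1: ttccaactTTCCAGAAGTTTCtcgggacgg
HSPA8: cgggccccTTCTGGAAGGTTCtaagatagg
HSP90AA1: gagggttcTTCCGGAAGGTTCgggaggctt
HSP90AB1: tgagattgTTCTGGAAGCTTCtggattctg
CHORDC1: cgcgaccgGAAAATTCGCGAAGGTTCctga

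SERPINH1, HSPA1B and HSPA13 were higher in S3I-201, and the other 33 members with an adjusted p did not pass. No member was lower by the authors' DESeq2 adjusted p, and at an unadjusted p under 0.05 there were 6 members, all with positive values. The background over all 11912 genes tested was 4.45% higher and 1.45% lower at an adjusted p of 0.05. At an unadjusted p under 0.05 it was 16%, split into 9.11% with a positive and 6.88% with a negative value. The 3 higher members are 8.33% of the 36 tested, beside the 4.45% higher over all genes and 5.9% called in either direction. The members were chosen with earlier results of these data known, so these shares are a description and not a test. In these bulk libraries a shift in which cells were present and a shift in RNA per cell cannot be told apart. The median log2 fold change was 0.01 over the tested members and -0.02 over all tested genes, with 19 members positive and 17 negative. Without SERPINH1 and HSPA13, 1 of 34 tested members, or 2.94%, was higher.

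**Figure D1:**
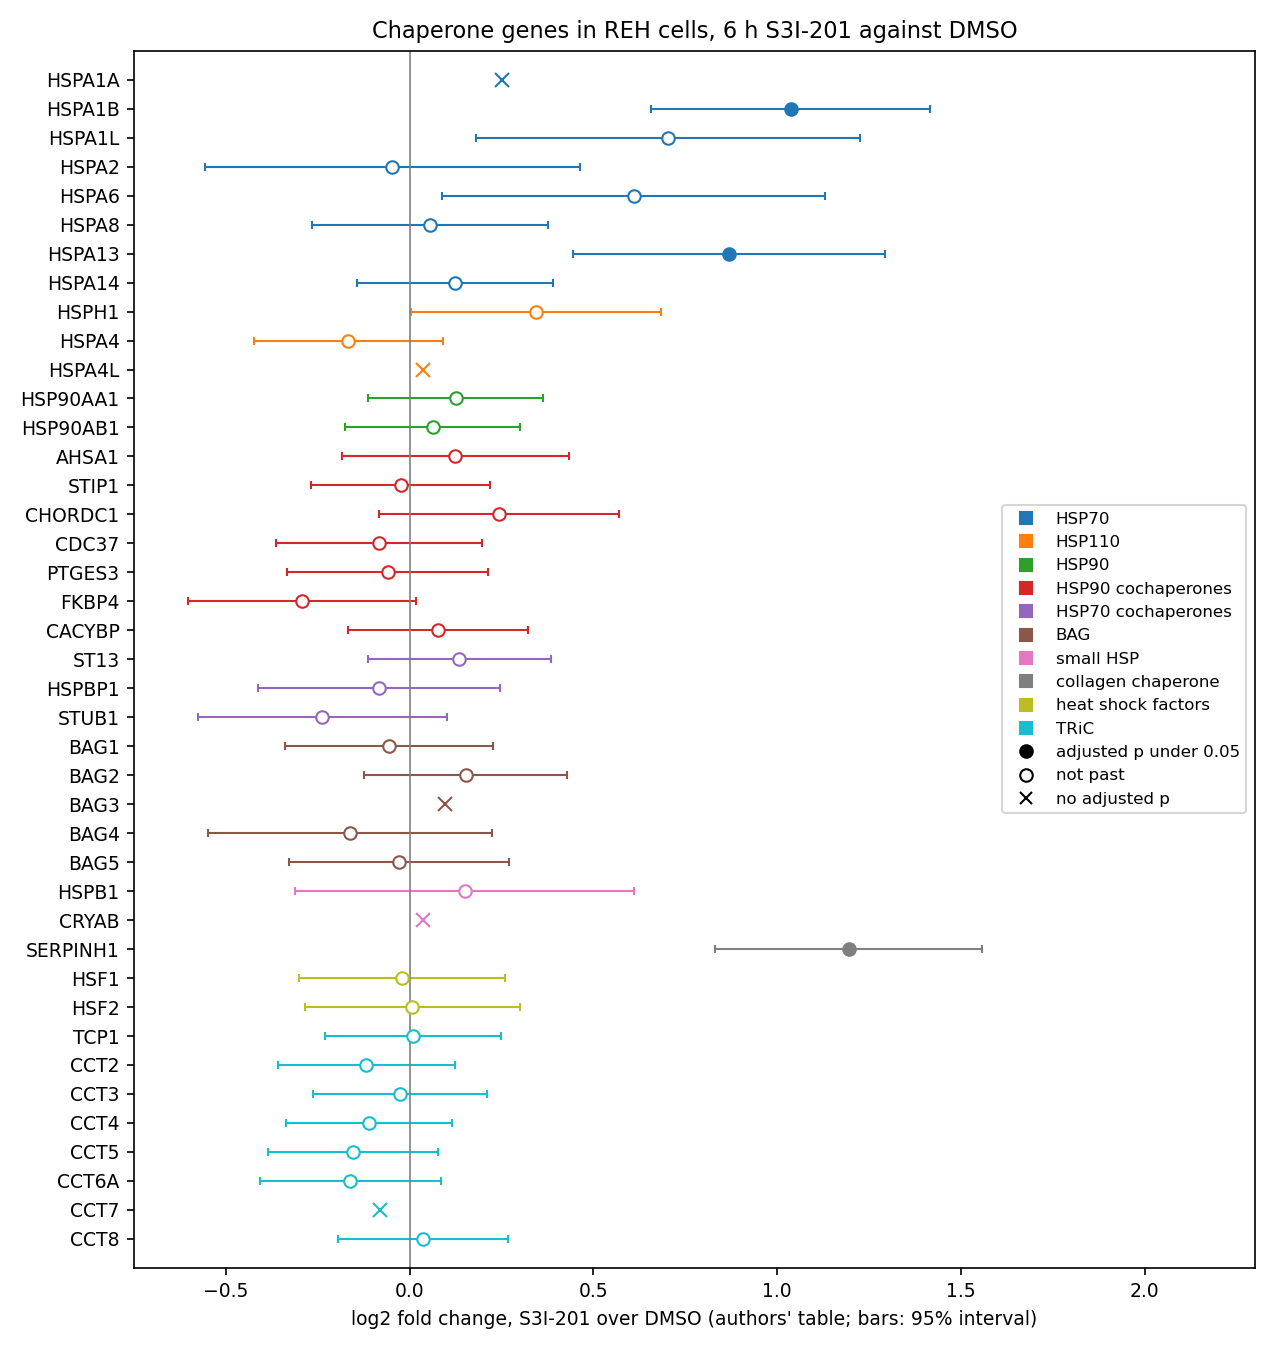
Log2 fold change of the 41 members, S3I-201 over DMSO, from the authors' deposited table, grouped by role. Bars are 95% intervals from the implied SE, filled points passed an adjusted p of 0.05, and crosses have no adjusted p; SERPINH1, HSPA1B and HSPA13 lie to the right and the 8 TRiC subunits around 0, from -0.16 to 0.04.

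Within the HSP70 family, 2 of 7 tested members were higher, the cytosolic HSPA1B and HSPA13, which is bound to microsomes. The other 5 did not pass, and 6 of the 7 values were positive. Over all tested genes 4.45% were higher and 46.4% had positive values. Errors are given as an implied SE, which is what turns the deposited log2 value into its p-value on a normal curve. HSPA1B, the stress-inducible cytosolic HSP70, had a mean normalized count of 330.0 over the 6 libraries and was 2.05-fold higher in S3I-201 in the authors' deposited table (log2 fold change 1.04, implied SE 0.19, adjusted p = 7.38e-06). Mean and fold change together imply about 444 normalized counts in S3I-201 and 216 in DMSO. HSPA13, an ATPase of the microsomal membrane that resembles HSP70 and lacks its peptide-binding domain, was 1.83-fold higher in the authors' deposited table (log2 fold change 0.87, implied SE 0.22, adjusted p = 0.00216), or about 1002 in S3I-201 and 549 in DMSO. Shrinkage towards 0 seems to have been applied to the fold changes, so values of weakly expressed genes may be understated. Group means implied by a shrunken fold change would lie too close together.

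HSPA1L, a relative of HSPA1A best known from testis, stood at 0.70 in log2 units of the authors' deposited table, at a mean of only 16.7 (implied SE 0.27, unadjusted p = 0.0084, adjusted p = 0.107). HSPA6, which human cells make almost only under stress, stood at 0.61 in the authors' deposited table, at a mean of 20.2 (implied SE 0.27, unadjusted p = 0.0219, adjusted p = 0.194). Neither passed, and the 95% intervals of both log2 fold changes, from 0.18 to 1.23 for HSPA1L and from 0.09 to 1.13 for HSPA6, reach from near 0 to beyond 1. HSPA8, the constitutive HSP70 of every cell, had 0.06 in log2 units of the authors' deposited table at a mean of 50843, with an interval from -0.27 to 0.38. The ribosome-associated HSPA14 had 0.12 and HSPA2, an HSP70 of germ cells, -0.05 in the authors' deposited table, with adjusted p-values of 0.758 and 0.963.

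HSPA1A, the other stress-inducible HSP70, is a near copy of HSPA1B. In the authors' deposited table it had a mean of 6.09, a log2 fold change of 0.25 and no p-value, which is how DESeq2 by default reports a gene with an outlying count. The 6 size factors allow 1 combination of whole reads per library for its mean, within 4e-09. On the S3I-201 side HSPA1A had 0, 32 and 1 reads, and on the DMSO side it had 6, 1 and 2 reads, in the order of the size factors given above. The 32 reads of a single S3I-201 library are 76.2% of all 42. Divided by size factors, they become 0, 26.8 and 1.75 on the S3I-201 side and 4.86, 0.984 and 2.11 on the DMSO side. The sides overlap, since 1 S3I-201 library lay above all DMSO libraries, 1 lay below them all and 1 lay among them. The S3I-201 side averaged 9.53 and the DMSO side 2.65, a log2 ratio of 1.85, and without the high library the S3I-201 side averaged 0.873.

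BAG3, a nucleotide release factor that couples HSP70 to autophagy and small heat shock proteins, was nearly silent, with a mean of 2.59 in the authors' deposited table. Its only combination of reads was 0, 10 and 1 on the S3I-201 side and 3, 3 and 0 on the DMSO side. The 10 reads, 58.8% of 17, came from the same S3I-201 library that held the HSPA1A reads. Among the 1224 genes with a mean of 2 to 6.5, all of which had exactly 1 combination, that library held a median of 20% of a gene's reads, close to its 19.1% share of the depth. HSPA1A had the largest share of these genes in it, and a share at least as large as that of BAG3 was found in 8 genes, or 0.654%. That library was singled out because of its HSPA1A and BAG3 reads, so these ranks are a description and not a test. Its part in the fold changes of HSPA1B, HSPA1L and HSPA6, whose reads per library could not be recovered singly, was not tested. CRYAB, an alpha-crystallin, and HSPA4L, an HSP110, each had 1 read in all, on the S3I-201 side.

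**Figure D2:**
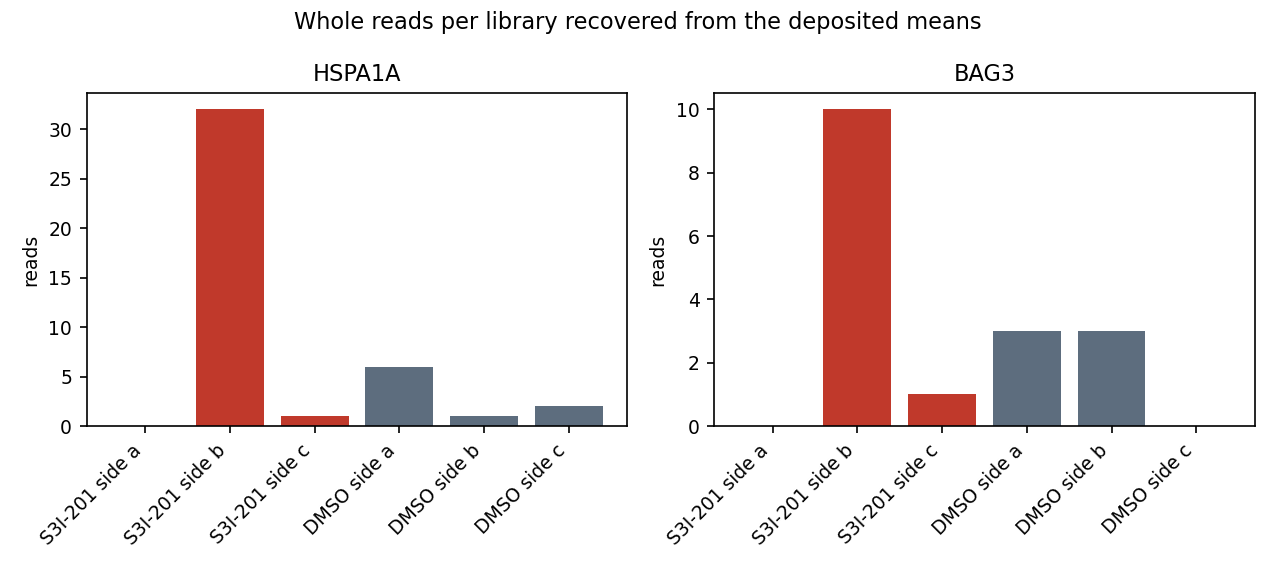
Reads of HSPA1A (left) and BAG3 (right) in each of the 6 libraries (y axis: whole reads), recovered from the deposited means, with the S3I-201 side in red left of the DMSO side in grey and libraries a to c in order of falling size factor. Library b of the S3I-201 side holds 32 of 42 HSPA1A reads and 10 of 17 BAG3 reads.

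How far such reads can be told apart was measured on GENCODE 29 transcripts. Of all stretches of 75 bases in the longest HSPA1A transcript, 71.2% also occur in HSPA1B, and of those in HSPA1B 70.1% occur in HSPA1A, so the division of reads between them depends on how shared reads were counted, which is not given in the sources used here. HSPA6 shared 35.0% of its stretches with the pseudogene HSPA7 and HSPA1L only 0.688% with each of HSPA1A and HSPA1B. SERPINH1, HSPA13 and HSPH1 shared none of theirs with another gene. Among the remaining members the largest share was that of ST13, at 22.9%, spread over 14 other genes. SERPINH1 (chr11:75562056-75572783, plus strand), HSPA13 (chr21:14371115-14383484, minus strand) and HSPA1B (chr6:31827735-31830255, plus strand) are whole-gene spans in GENCODE 29 (GRCh38). Exons of genes on the opposite strand, whose reads this library type does not separate, cover none of these 3 genes, but 44.2% of the exon length of BAG2, 43.6% of CCT5 and 42.6% of STUB1. On the same strand, AL671762.1 overlaps 36.5% of the HSPA1B exons.

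In level, HSPA8 was the most abundant member per length of transcript. Divided by the length of its protein-coding exons in GENCODE 29, its mean normalized count was 18838 per kb, next to 11402 for HSP90AB1 and 6784 for HSP90AA1. The inducible HSPA1B stood at 131 per kb, HSPA6 at 8.51, HSPA1L at 6.58 and HSPA1A at 2.45. The values of HSPA1B, HSPA6 and HSPA1A depend on how reads shared with other genes were counted, which is not given. On this scale every HSP70 gene with a log2 fold change above 0.5 lay far below HSPA8, HSPA13 included at 195. So did HSPA14 at 197 and HSPA2 at 7.14, whose log2 fold changes were 0.12 and -0.05. All 41 members together held 1.81% of the summed mean normalized counts. The 8 TRiC subunits lay close together, from 1752 per kb for CCT4 to 4069 per kb for CCT7.

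**Figure D3:**
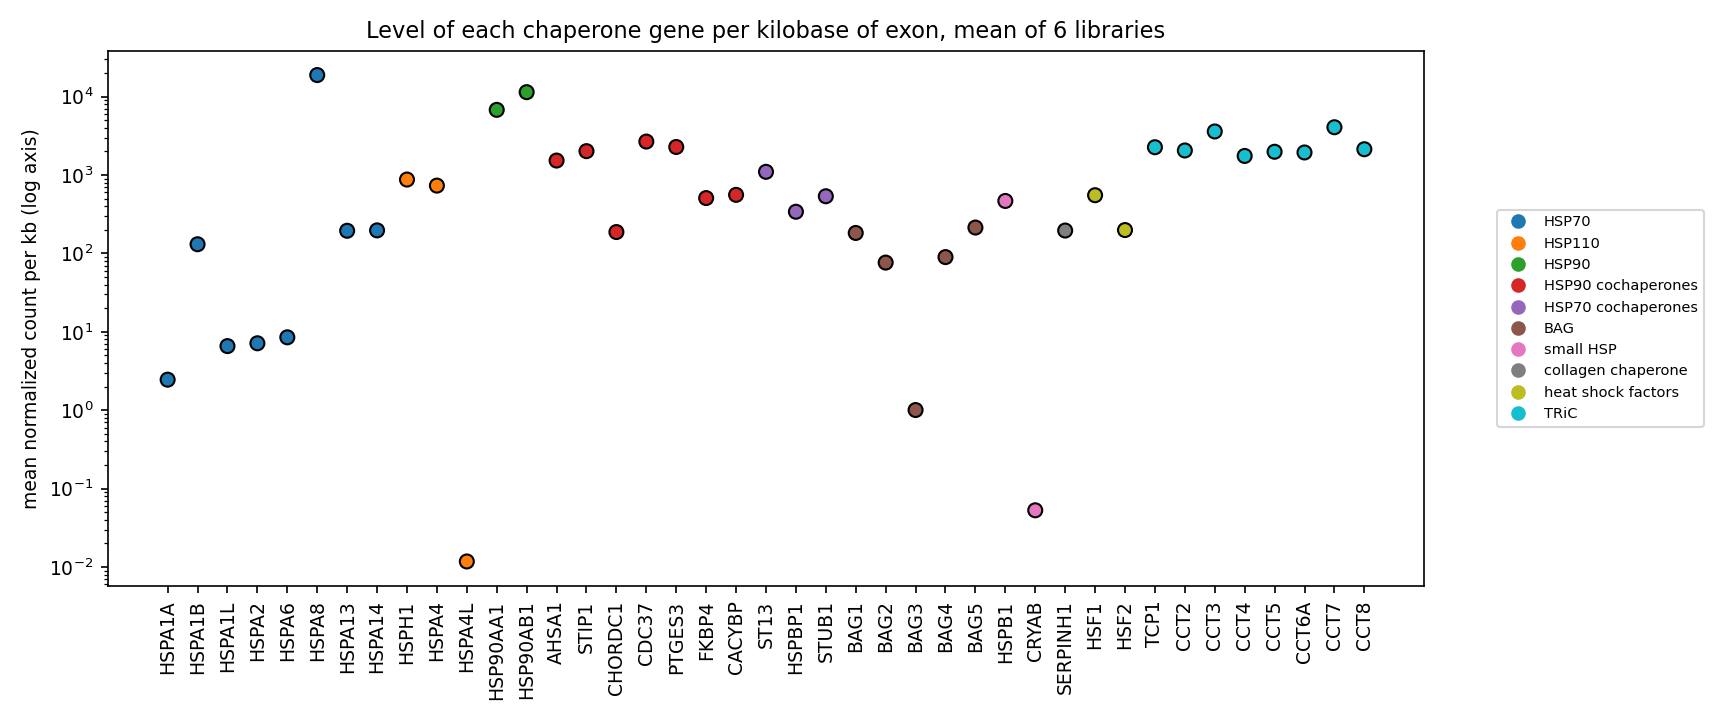
Mean normalized count per kb of protein-coding exon for each member (log axis), averaged over the 6 libraries of both groups and coloured by role. HSPA8 and the HSP90 genes lie at the top, the TRiC subunits between 1752 and 4069, and BAG3, CRYAB and HSPA4L at the bottom.

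SERPINH1, known as HSP47, binds procollagen in the endoplasmic reticulum and is induced by heat through HSF1. It had the largest change of the list, at 2.29-fold higher in S3I-201 in the authors' deposited table (log2 fold change 1.19, implied SE 0.19, adjusted p = 1.79e-08), at a mean normalized count of 953. Mean and fold change together imply about 1326 in S3I-201 and 579 in DMSO, with the same limit of shrinkage. SERPINH1 and HSPA13 both act at the endoplasmic reticulum. There the HSP70 HSPA5 at 1.35, its exchange factor HYOU1 at 1.09 and the HSP90 HSP90B1 at 1.01 were also higher in log2 units of the authors' deposited table (adjusted p = 3.39e-12, 9.47e-08 and 4.16e-08). SIL1, the other exchange factor of HSPA5, stood at 0.25 in the authors' deposited table and did not pass (adjusted p = 0.606), so that 3 of these 4 genes, chosen after their values were seen, were higher. Among cytosolic relatives in the authors' deposited table HSPA1B, at 1.04, passed. HSPA1L at 0.70, HSPA6 at 0.61, HSPH1 at 0.34, HSP90AA1 at 0.13 and HSPA14 at 0.12 did not. Neither did HSPA8 at 0.06, HSP90AB1 at 0.06, HSPA2 at -0.05 and HSPA4 at -0.17. The difference between the compartments was not tested.

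Of the HSP110 members, which exchange nucleotide on HSP70, HSPH1 had 0.34 in log2 units of the authors' deposited table (implied SE 0.17, unadjusted p = 0.0478, adjusted p = 0.305). HSPA4 stood at -0.17 in the authors' deposited table (adjusted p = 0.618). HSP90AA1, the inducible cytosolic HSP90, had an interval from -0.11 to 0.36 on the log2 scale, and HSP90AB1, the constitutive one, from -0.18 to 0.30. Both intervals exclude a log2 change of 1, as far as these apparently shrunken values tell.

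The 7 HSP90 cochaperones ran from -0.29 to 0.24 in log2 units of the authors' deposited table, 3 positive and 4 negative. Of these, 0 of 7 passed by DESeq2's adjusted p or had an unadjusted p under 0.05. Over all tested genes the shares were 5.9% and 16%. Counts of 0 in groups this small, also for the HSP70 cochaperones below, therefore say little. CHORDC1, a zinc-binding partner of HSP90, had the highest value at 0.24 (adjusted p = 0.539) and FKBP4, an immunophilin of steroid receptor complexes, the lowest at -0.29 (adjusted p = 0.364) by the authors' deposited table. AHSA1, which stimulates the HSP90 ATPase, stood at 0.12, the adaptor STIP1 at -0.02, the kinase adaptor CDC37 at -0.08, the p23 protein PTGES3 at -0.06 and CACYBP at 0.08 in the authors' deposited table. Of the HSP70 cochaperones, ST13 had 0.14, the exchange factor HSPBP1 -0.08 and the ubiquitin ligase STUB1 -0.24 in the authors' deposited table, and 0 of 3 passed by DESeq2's adjusted p or had an unadjusted p under 0.05.

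The BAG proteins with an adjusted p ran from -0.16 for BAG4 to 0.15 for BAG2 in log2 units of the authors' deposited table, with BAG1 at -0.06 and BAG5 at -0.03. By DESeq2's adjusted p 0 of 4 passed, also 0 at an unadjusted p under 0.05, beside 5.9% and 16% of all tested genes. The small heat shock protein HSPB1 stood at 0.15 in the authors' deposited table (SE 0.24 as implied, adjusted p = 0.852) with a mean of 495. HSF1 at -0.02 and HSF2 at 0.01 missed the threshold in the authors' deposited table (adjusted p = 0.970 and 0.990). HSF1 is activated on the protein level, which these transcript counts do not measure.

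The TRiC subunits lay close to each other. Of 8, 7 had an adjusted p, and 0 passed by DESeq2's adjusted p or had an unadjusted p under 0.05. Among all tested genes 5.9% passed and 16% had such an unadjusted p, so 0 of 7 says little. The 7 values ran from -0.16 for CCT6A to 0.04 for CCT8 in log2 units of the authors' deposited table. CCT5 stood at -0.15, CCT2 at -0.12, CCT4 at -0.11, CCT3 at -0.03 and TCP1 at 0.01. The 95% intervals of all 7 lay between -0.41 and 0.27. CCT7 had -0.08 at a mean of 8309 and no p-value in the authors' deposited table, and its mean is too high for reads per library to be recovered.

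**Figure D4:**
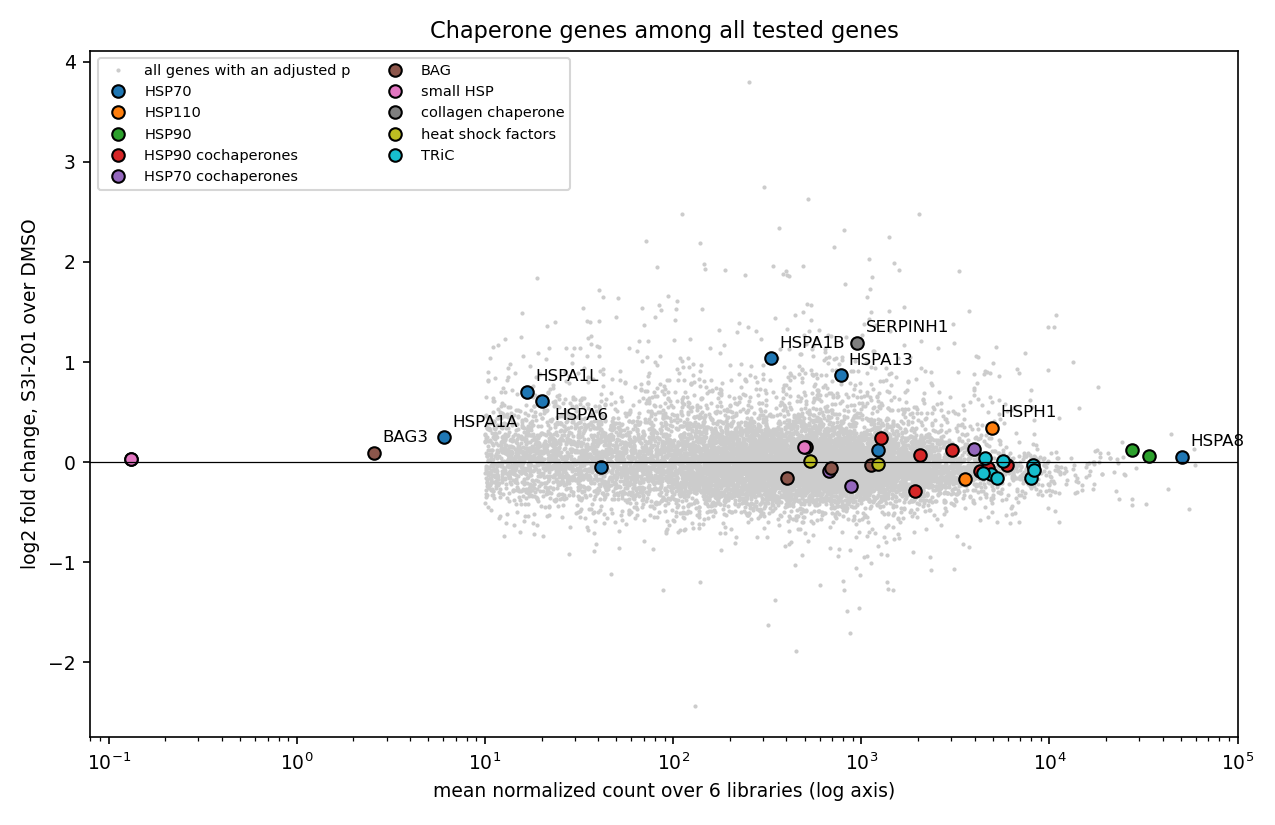
Log2 fold change, S3I-201 over DMSO, against the mean normalized count over 6 libraries (log axis) for all 11912 genes with an adjusted p (grey) and the 41 members coloured by role. HSPA8, the most abundant member, stands at 0.06, while SERPINH1, HSPA1B and HSPA13 stand at 1.19, 1.04 and 0.87.

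Values were next set beside the heat shock elements shown above. Of the 41 members 33 had at least 1 RefSeq window, and HSPA14, FKBP4, ST13, STUB1, BAG4, CRYAB, HSF1 and CCT6A had none in the table used. A pair was found in 16 of the 33, in 33.3% of their 48 windows, against 13.5% of all 35116 windows. A run of 3 units was found in 6 of the 33, in 12.5% of their windows, against 0.49% of all. SERPINH1 was the only one of these 6 that passed; the other 5 in the authors' deposited table were HSPA6 at 0.61, CHORDC1 at 0.24, HSP90AA1 at 0.13, HSP90AB1 at 0.06 and HSPA8 at 0.06. Over all genes in the authors' deposited table with an adjusted p and a window, 45 held a run of 3 units. Of these 45, 2 were higher, SERPINH1 and OSBP, and none was lower. The shares over all 11912 tested genes were 4.45% higher and 1.45% lower. The median log2 fold change was 0.06 in the 45 and -0.02 in the genes without such a run. OSBP, a sterol and lipid transfer protein, was named after its values were seen and stood at 0.53 in the authors' deposited table (adjusted p = 0.0360).

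Relative to the transcript start, the pair in HSPA1B begins at -105 and that in HSPA1A at -106. HSPA1A and HSPA1L are transcribed away from each other, and the single pair in each of their windows is the same 8 bases, chr6:31815437-31815444. HSPA1L had 0.70 and HSPA1A 0.25 in log2 units of the authors' deposited table. BAG3, HSPH1, HSPA13 and AHSA1 had no pair in their windows, which says only that these letters are not there.

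**Figure D5:**
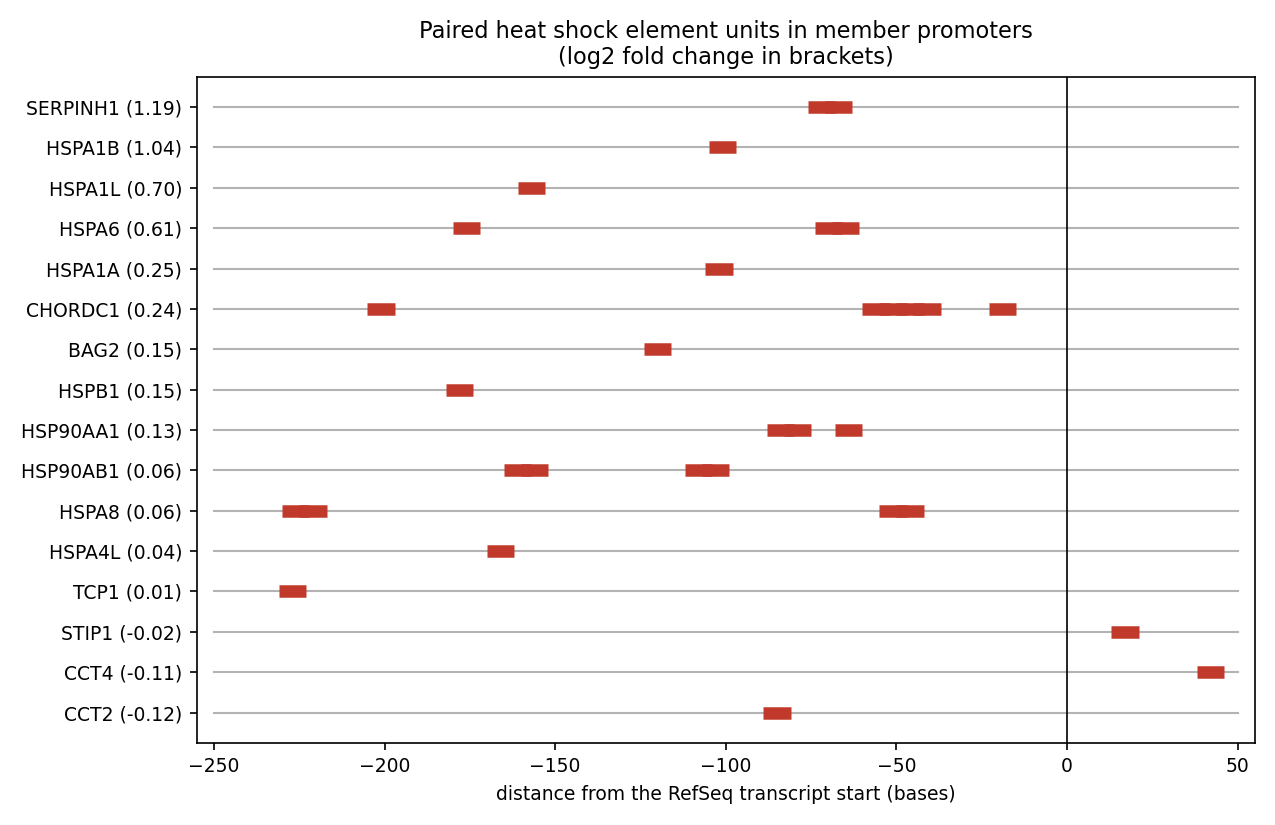
Position of each inverted pair (red) in the promoter windows of the 16 members that hold one, as distance in bases from the RefSeq transcript start, sorted by log2 fold change (in brackets, S3I-201 over DMSO). Runs of overlapping pairs occur in genes at the top, such as SERPINH1 at 1.19, and in genes near 0, such as HSPA8 at 0.06.

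Other genes of the chaperone network gave the following counts, to be read beside the 4.45% higher over all tested genes. The lists were chosen with earlier results of these data known, so the counts are a description and not a test. Of 6 tested genes on a list of heat shock factors, regulators and related genes 3 were higher. These were IER5, an activator of HSF1, at 1.31, DEDD2 at 1.03 and IER5L at 0.90 in log2 units of the authors' deposited table (adjusted p = 9.38e-08, 1.02e-05 and 0.0157). HSPBAP1 at 0.09, HSF4 at -0.04 and HSBP1 at -0.31 did not pass. Of 14 other heat-inducible or organelle chaperone genes, which include HSPA5 and HSP90B1 named above, 7 were higher and 7 did not pass. Among those with the smallest adjusted p in the authors' deposited table were the J-domain protein DNAJB4 at 1.87, HSPA5 at 1.35 and HSP90B1 at 1.01. ZFAND2A, a proteasome-linked protein made in response to arsenite, at 0.73, DNAJB1 at 0.49 and the mitochondrial HSP70 HSPA9 at 0.44 passed as well in the authors' deposited table. The mitochondrial chaperonin HSPD1 at -0.09 and its partner HSPE1 at -0.24 missed the threshold in the authors' deposited table (adjusted p = 0.845 and 0.582).

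Partners of TRiC and HSP90 outside the list did not pass. Of all tested genes 5.9% passed and 16% had an unadjusted p under 0.05, so low counts in lists this short say little. Of 12 tested prefoldin subunits and TRiC assistants 0 passed by DESeq2's adjusted p. An unadjusted p under 0.05 was found for 2, PDCL3 at -0.42 and PFDN6 at -0.38 in the authors' deposited table. Negative values made up 9 of the 12, beside 6387 of all 11912 tested genes. Of 21 further HSP90 cochaperones 0 passed by DESeq2's adjusted p and 1 had an unadjusted p under 0.05, NUDCD2 at -0.38 in the authors' deposited table. FKBP5, a glucocorticoid-inducible immunophilin, had -0.24 (adjusted p = 0.489) by the authors' deposited table. Of 11 other HSP70 partners, HYOU1, already named with the endoplasmic reticulum genes, was higher and 10 did not pass. Of 2 tested small heat shock proteins 0 passed by DESeq2's adjusted p and 0 had an unadjusted p under 0.05. They were HSPB6 at -0.29 and HSPB11 at 0.16 in the authors' deposited table.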

How the data were processed

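REH libraries followed Illumina's TruSeq RNA v2, per the labels' protocols, a kit that does not mark strand. The submitters' processing notes name hg38, bcl2fastq 2.19, Trimmomatic, Bowtie2, Picard, featureCounts and DESeq2, with no role or order. The deposited mean normalized count is a signal that is never negative, called baseMean per the file headers, DESeq2's name for a mean of size-factor-scaled counts. The authors deposited its log2 fold change and p-value with an adjusted p. No values per library are in the table, so the planned edgeR test was not run and the authors' adjusted p was used at 0.05. Of 26364 genes 11912 had an adjusted p, and adjusting their p-values by Benjamini-Hochberg came within 0.675% of it.

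Computed here were implied SEs with 95% normal intervals, implied group means (from the mean and the fold change, taking both groups as equal in number), whole reads per library for means under 7, levels per kb, shared stretches of 75 bases and promoter matches, with Python 3.11.15, pandas 2.3.3, scipy 1.17.1 and statsmodels 0.14.6. In 60 random genes with means of 3 to 6.5, each had 1 read combination, and the 35 with log2 fold changes of at least 0.1 in size had the deposited sign. Sides were taken from the sign of the authors' fold change of genes with 1 read, not from any label. Adjustment and calling were tested on simulated data. Members with full values were those past the threshold, with an unadjusted p under 0.05, without a p-value, or at the ends of a role. Up to 4 genes were named from each further list, with smallest adjusted p, and others were named after their values were seen. One gene that this rule would name is not reported here. Members and lists were chosen with earlier results of these data known, and the count without SERPINH1 and HSPA13 was added after seeing the data. P-values measure only the spread between these libraries. Counting error by itself already limits values that rest on few reads.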

Additional observations from a re-analysis of the deposited data

How the results depend on the processing

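The 3 higher members, HSPA1B, HSPA13 and SERPINH1, passed when p-values were adjusted over every gene that had one, at thresholds of 0.01 and 0.1, with a minimum log2 change of 0.5, with a minimum mean of 100, and with the median fold change removed in 20 abundance bins or over all genes. With a minimum log2 change of 1, HSPA13 at 0.87 no longer passed and 2 remained. Leaving out SERPINH1 and HSPA13, an alternative chosen after seeing the data, left 1 higher member, HSPA1B, by construction. The number of lower members was 0 under every one of these alternatives, by the authors' DESeq2 p-values adjusted as stated. The median log2 fold change of the members was 0.06 with the bins' medians removed, 0.04 over all 41 and -0.01 at a mean of at least 100, against 0, 0.00 and -0.04 over all genes treated alike. No other member changed its call. Among further genes, UBB passed with the bins' medians removed (0.36, adjusted p = 0.0418), and IER5L, DNAJB1, ZFAND2A and HSPA9 did not pass at 0.01 or under a minimum log2 change of 1. DNAJB1 and HSPA9 also missed a minimum of 0.5. No paired analysis was possible because the table holds no values per library, and leaving out single replicates, TMM and edgeR were not run for the same reason. Few reads limit HSPA1A, BAG3, CRYAB and HSPA4L, which rest on 42 reads or fewer. HSPA1A and BAG3 are limited further by 1 library of the S3I-201 side, which held 32 of 42 and 10 of 17 reads.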
